A study of Mus musculus with 19 samples.

Results

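Cadherins are membrane proteins that hold neighbouring cells together through calcium-dependent contacts between their extracellular domains. The tails of the classical cadherins bind catenins, which link the contact to actin. In the kidney the tubule epithelium carries E-cadherin and the kidney-specific Ksp-cadherin, whereas cadherin-11 is known from mesenchymal cells and T-cadherin from vessels. The 8 genes described here were taken by symbol as cadherins of kidney epithelium and stroma: Cdh16, Cdh1, Cdh3, Cdh2, Cdh6, Cdh4, Cdh11 and Cdh13. Each of the 8 symbols matched 1 of the 54146 Ensembl genes listed for every library.

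Messenger RNA was measured by RNA sequencing of whole kidneys from mice of strain B6C3F1/J on postnatal day 21, at 3 weeks of age. The KspCre DKO group (genotype KspCre Dnmt3ab f/f) held 2 libraries, and the control group (genotype Dnmt3ab f/f, no Cre) held 3. Both groups thus carry the floxed alleles of Dnmt3a and Dnmt3b, the de novo DNA methyltransferases, and the groups differ by the Cre. That Cre is driven by the promoter of Cdh16, which is active in tubule epithelium, so other cells of the organ are not its target. The other 14 of the 19 samples are bisulfite libraries and are not analysed here. Whether each library is a different animal is not stated in the labels, and p-values therefore reflect library-to-library spread, which may be technical.

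Values are TPM, an abundance of transcripts per transcript length that sums to the same total in each library and keeps no sequencing depth, so the depth is unknown. KspCre DKO replicate 2 stood apart, with 14710 genes above 0, against 20510 in KspCre DKO replicate 1 and 18488 to 20075 in the controls. Mitochondrially encoded genes took 31.0% of its TPM, against 22.1% in KspCre DKO replicate 1 and 18.2% to 23.2% in the controls, which leaves less of the fixed TPM total for its other genes. Its log2 profile correlated with the others at r = 0.886 to 0.918 across genes, which are not independent replicates, and the other pairs reached 0.922 to 0.958. In the limma fit of 13963 genes (mean TPM no lower than 1), 23 genes (0.165%) passed an adjusted p of 0.05, 14 higher (0.1%) and 9 lower (0.0645%) in KspCre DKO kidneys. With median-of-ratios scaling the split was 24 higher and 7 lower, and with quantile normalization 35 and 7. Leaving out KspCre DKO replicate 1 gave 90 higher and 470 lower genes, and the median log2 fold change over all tested genes was then −0.39. With all 5 libraries the median log2 fold change over all tested genes was −0.14, and −0.02 after quantile normalization. Without KspCre DKO replicate 2 it was 0.13. Small differences are to be read against these shifts. TPM per gene do not resolve the floxed exons, so the targeted genes give no check of the deletion or the labels. Dnmt3a stood at 9.98 and 14.2 TPM in libraries labelled KspCre DKO, against 13.2, 19.0 and 15.5 TPM in controls. Dnmt3b stood at 2.29 and 3.25 TPM in libraries labelled KspCre DKO, against 1.82, 2.86 and 1.98 TPM in controls. Directions therefore rest on the labels.

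The cadherins spanned a wide range of abundance, and none passed the test. Of the 8 genes, 6 had a mean of at least 1 TPM and entered the limma fit, and 0 of these 6 had an adjusted p below 0.05. At an unadjusted p below 0.05, 1 of the 6 was counted, Cdh1, against 10.3% of all tested genes. The KspCre DKO and control ranges did not overlap for 2 of the 6 (background 26.1% of tested genes in either direction), Cdh1 on the higher side (background 10.5% of tested genes) and Cdh11 on the lower side (background 15.6%). An exact permutation of 2 against 3 libraries has 10 splits and cannot give a p below 0.1 for any single gene. The median log2 fold change of the 6 was −0.05, with 3 positive and 3 negative. In whole tissue, fewer cells of a type and less RNA per cell cannot be told apart, here and in all that follows.

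**Figure D1:**
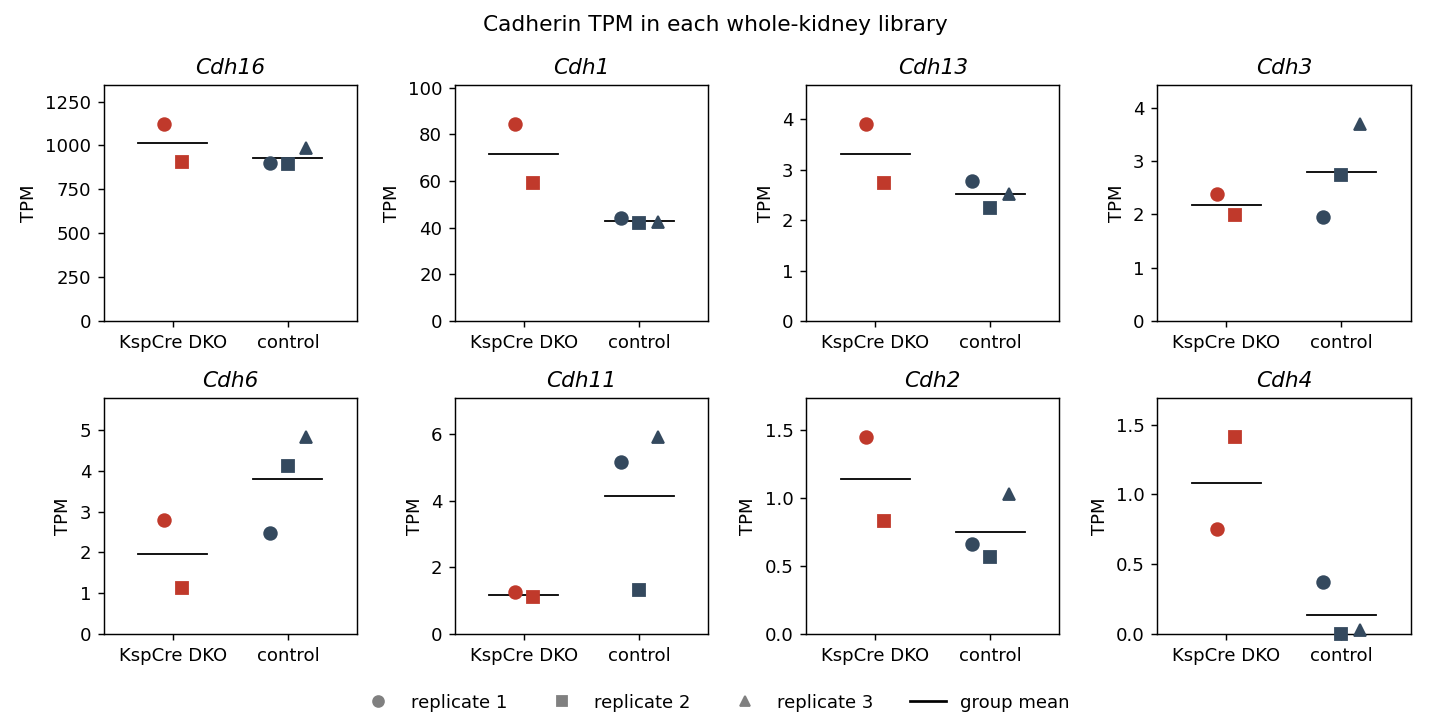
TPM of each cadherin in each library, 1 panel per gene with its own linear axis from 0; red symbols are KspCre DKO, dark symbols control, the symbol shape gives the replicate number and the line the group mean. Both KspCre DKO points of Cdh1 (84.3 and 59.2 TPM) lie above all controls (42.2 to 44.4 TPM), whereas those of Cdh16 overlap them.

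Cdh16 encodes Ksp-cadherin, a cadherin of the basolateral membrane of tubule cells with a short tail that lacks the catenin-binding region. It lies on chromosome 8 (104601915 to 104624396, GRCm38.p6). Cdh16 (ENSMUSG00000031881.6) stood at 1121 and 906 TPM in KspCre DKO kidneys, against 900, 895 and 986 TPM in controls. In TPM, KspCre DKO replicate 2 lay inside the control range and KspCre DKO replicate 1 above it. Mitochondrially encoded genes took 31.0% of TPM in KspCre DKO replicate 2, 22.1% in KspCre DKO replicate 1 and 18.2% to 23.2% in controls. The ranks of Cdh16 among all genes, given below, did not overlap, but the share of all genes with separate ranks is not given here. The group means were 1013 ± 152 TPM (SD, n = 2) in KspCre DKO kidneys and 927 ± 51.3 TPM (SD, n = 3) in controls, and the log2 fold change was 0.12 with an SE of 0.22 (adjusted p = 0.878 by limma). The sign turned when KspCre DKO replicate 1 was left out (−0.03), where the median of all tested genes was −0.39. The value was 0.235 with median-of-ratios scaling (adjusted p = 0.611) and 0.45 with quantile normalization (unadjusted p = 0.025, adjusted p = 0.302). By TPM, Cdh16 ranked 73 and 70 among all genes in the KspCre DKO libraries, against 122, 107 and 112 in the control libraries. The ranks of Cdh1 did not overlap either, at 1266 and 1303 in the KspCre DKO libraries, against 2353, 2384 and 2524 in controls.

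Cdh1 encodes E-cadherin, the classical epithelial cadherin that binds beta-catenin and p120-catenin, on chromosome 8 (106603350 to 106670247). Cdh1 (ENSMUSG00000000303.12) stood at 84.3 and 59.2 TPM in KspCre DKO kidneys, against 44.4, 42.2 and 42.2 TPM in controls. Both KspCre DKO libraries lay above the controls, which were close together, while the KspCre DKO libraries differed between themselves by more than the whole control range. Means were 71.7 ± 17.7 TPM (SD, n = 2) in KspCre DKO kidneys and 42.9 ± 1.23 TPM (SD, n = 3) in controls, 1.67 times higher. The log2 fold change was 0.71 ± 0.27 (SE; unadjusted p = 0.0314, limma adjusted p = 0.425). Over 16 alternative fits it stayed positive, from 0.45 without KspCre DKO replicate 1 to 0.96 without KspCre DKO replicate 2, with adjusted p from 0.124 to 0.998. No one of these fits called it.

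The ratio of the abundant epithelial cadherins within a library is kept by scaling with a single factor, though not by quantile normalization, where Cdh1 had a log2 fold change of 0.86 and Cdh16 one of 0.45. There were 7.52 and 6.53 TPM of Cdh1 per 100 TPM of Cdh16 in KspCre DKO kidneys, against 4.93, 4.72 and 4.28 in controls. All KspCre DKO values lay above all control values, with means of 7.03 ± 0.70 (SD, n = 2) in KspCre DKO kidneys and 4.64 ± 0.33 (SD, n = 3) in controls, 1.51 times higher. As a share of the summed TPM of the 8 cadherins, Cdh1 held 6.92% and 6.07% in KspCre DKO kidneys, against 4.63%, 4.45% and 4.04% in controls. Cdh16 held 92.0% and 93.0% in KspCre DKO kidneys, against 94.0%, 94.4% and 94.2% in controls. The 6 other cadherins together summed to 12.5 and 9.19 TPM in KspCre DKO kidneys, against 13.4, 11 and 18 TPM in controls. These proportions are values without a test, since the members were chosen with results known.

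Cdh3 encodes P-cadherin, a classical cadherin of basal epithelial cells that has also been described in podocytes. It lies near Cdh1 on chromosome 8 (106510852 to 106556911), with 46438 bases between the genes and the predicted gene Gm10073 among them. Cdh3 (ENSMUSG00000061048.8) stood at 2.39 and 1.98 TPM in KspCre DKO kidneys, against 1.96, 2.74 and 3.69 TPM in controls, and the groups overlapped. Its log2 fold change was −0.23 ± 0.38 (SE; limma adjusted p = 0.866), of opposite sign to that of Cdh1. The difference between these 2 changes was not tested. Tango6, on the other side of Cdh1, stood at 2.07 and 1.28 TPM in KspCre DKO kidneys, against 1.51, 0.90 and 0.59 TPM in controls.

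Cdh6 encodes K-cadherin, a type II cadherin of the early nephron and the proximal tubule, on chromosome 15 (13028699 to 13176407). It is the one member matched in the RefSeq promoter table used here, and its start-proximal sequence is shown because CpG pairs are what the targeted enzymes methylate. The window covers 250 bases upstream of a Cdh6 start site (GRCm38.p6, chr15:13173676-13173925, minus strand), read in the direction of transcription, with CpG pairs in capitals. This start site lies inside the gene span given above, not at the upstream end of that span (13176407 on the minus strand).
Cdh6: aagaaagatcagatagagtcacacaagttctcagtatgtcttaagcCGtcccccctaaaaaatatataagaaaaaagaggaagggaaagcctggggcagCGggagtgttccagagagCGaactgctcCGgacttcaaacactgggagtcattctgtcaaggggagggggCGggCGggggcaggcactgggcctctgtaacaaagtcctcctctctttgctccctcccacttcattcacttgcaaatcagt
The window holds 6 CpG pairs, equal to the median of 6 over 32851 promoter windows of the same length, of which 92.1% hold at least 1 (motif CG). Its GC content is 51.2%. The letters CACCTG, the E-box bound by Snail and Zeb repressors, were searched on both strands, as CACCTG or CAGGTG. They were not found in this window, and 17.2% of all windows hold them. Methylation of the CpG pairs was not analysed here.

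Cdh6 (ENSMUSG00000039385.5) stood at 2.79 and 1.13 TPM in KspCre DKO kidneys, against 2.48, 4.13 and 4.83 TPM in controls. KspCre DKO replicate 1 lay inside the control range and KspCre DKO replicate 2, where the fewest genes were above 0, below it. The log2 fold change was −0.73 ± 0.43 (SE; limma adjusted p = 0.595). Leaving out KspCre DKO replicate 1 gave −1.14, and leaving out KspCre DKO replicate 2 gave −0.31. The median of all tested genes also moved between these fits, from −0.39 to 0.13. The size of the Cdh6 change depends on which of these libraries is kept.

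The other cadherins tied to nephron formation and the proximal tubule were close to the lower limit of the data. Cdh2 encodes N-cadherin, which in the mouse is found in proximal tubule cells. Cdh2 (ENSMUSG00000024304.14) stood at 1.45 and 0.83 TPM in KspCre DKO kidneys, against 0.66, 0.57 and 1.03 TPM in controls, with overlap (exact permutation p = 0.3, two-sided). Cdh4 encodes R-cadherin, known from the first epithelial vesicles of the nephron. Cdh4 (ENSMUSG00000000305.12) stood at 0.75 and 1.41 TPM in KspCre DKO kidneys, against 0.37, 0 and 0.03 TPM in controls. Both KspCre DKO values lay above the controls, and the exact permutation p of 0.1 is the smallest that this design can give. Neither gene reached a mean of 1 TPM. In a limma fit with no filter on mean TPM, Cdh2 had a log2 fold change of 0.28 (adjusted p = 0.81) and Cdh4 one of 0.87 (unadjusted p = 0.00942, adjusted p = 0.494). Since depth is unknown, no counting interval can be given for values this low, and the 0 may be a failed estimate.

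**Figure D2:**
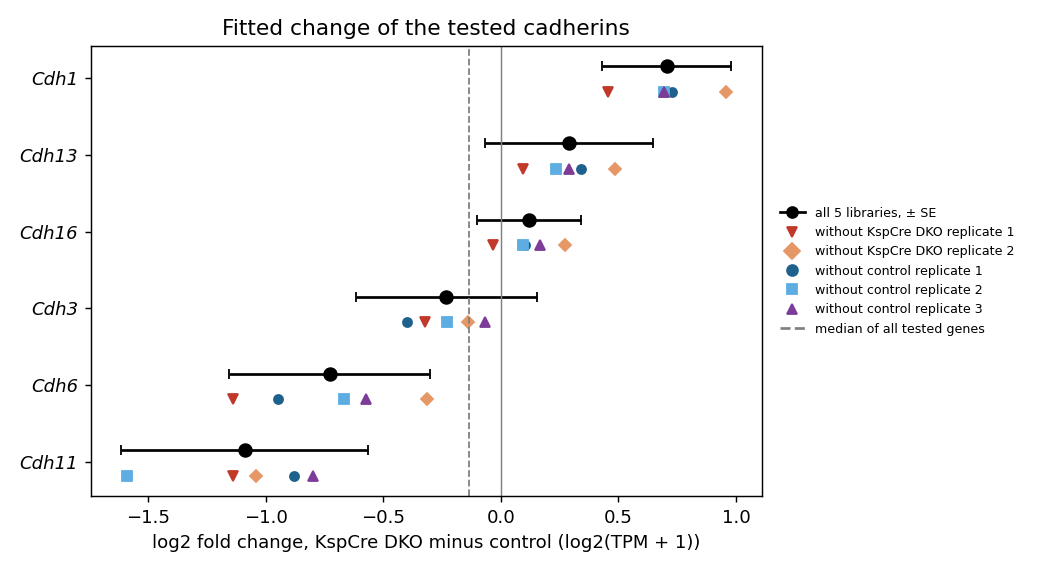
Log2 fold change of the 6 tested cadherins, KspCre DKO minus control, on the log2(TPM + 1) scale; black points with bars give the fit of all 5 libraries ± SE, and coloured symbols the fits that leave out 1 library. The solid line marks 0 and the dashed line the median of all tested genes (−0.14). Cdh1 stays above 0 and Cdh6 and Cdh11 below it in each of these fits, and Cdh16 lies on either side.

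Cdh11 encodes cadherin-11, a type II cadherin of mesenchymal cells and fibroblasts, on chromosome 8 (102632095 to 102785493). Cdh11 (ENSMUSG00000031673.6) stood at 1.25 and 1.10 TPM in KspCre DKO kidneys, against 5.17, 1.32 and 5.90 TPM in controls. The groups did not overlap, but control replicate 2 lay beside the KspCre DKO libraries and far from the other controls. The log2 fold change was −1.09 ± 0.52 (SE; limma adjusted p = 0.528), and −1.59 without control replicate 2 (adjusted p = 0.455).

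Sums of stromal markers were also high in control replicates 1 and 3 and low in the other libraries. The summed TPM of 16 fibroblast and pericyte markers was 224 and 241 in KspCre DKO kidneys, against 482, 219 and 474 in controls. The sum of 8 smooth muscle markers was 135 and 147 TPM in KspCre DKO kidneys, against 288, 136 and 255 TPM in controls. In both lists control replicate 2 lay at or near the KspCre DKO level, as it did for Cdh11. No member of either list passed (limma). Of 15 tested fibroblast and pericyte markers, 4 were lower and 0 higher at an unadjusted p below 0.05 (background 6.15% and 4.16%). The median log2 fold change of the list was −0.74. Without control replicate 2, the control with the lowest sum, the median was −1.19, where that of all tested genes was −0.17. Without KspCre DKO replicate 1 the list median was −0.61, where that of all tested genes was −0.39. Of 8 smooth muscle markers, 2 were lower and 0 higher at an unadjusted p below 0.05, with a median of −0.61. Among the defining markers, Pdgfra stood at 6.78 and 9.06 TPM in KspCre DKO kidneys, against 6.71, 9.19 and 15.4 TPM in controls. Pdgfrb stood at 9.31 and 10.2 TPM in KspCre DKO kidneys, against 17.2, 13.7 and 23.0 TPM in controls. Acta2, smooth muscle actin, stood at 18.3 and 29.4 TPM in KspCre DKO kidneys, against 89.8, 30.5 and 73.8 TPM in controls. Control replicate 2 was also the lowest control outside the stroma, in podocyte and in endothelial markers. The 10 podocyte and parietal cell markers summed to 217 and 169 TPM in KspCre DKO kidneys, against 297, 114 and 303 TPM in controls. The endothelial sum is given with Cdh13. In principal cell and thick ascending limb markers that library was the highest control. The part of the stromal content of each sample in the Cdh11 value was not tested.

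Cdh13 encodes T-cadherin, which has no transmembrane region, is held by a lipid anchor and binds adiponectin, on chromosome 8 (118140017 to 119324929). Cdh13 (ENSMUSG00000031841.19) stood at 3.90 and 2.74 TPM in KspCre DKO kidneys, against 2.77, 2.25 and 2.51 TPM in controls. KspCre DKO replicate 2 lay inside the control range, and the log2 fold change was 0.29 ± 0.36 (SE; limma adjusted p = 0.811). The 17 endothelial markers summed to 760 and 575 TPM in KspCre DKO kidneys, against 923, 580 and 913 TPM in controls. Their median log2 fold change was −0.18, with 1 lower and 0 higher at an unadjusted p below 0.05 (background 6.15% and 4.16%), and 0 passed. Cdh5, the cadherin of endothelial junctions, stood at 25.8 and 12.5 TPM in KspCre DKO kidneys, against 22.2, 14.7 and 24.1 TPM in controls. Pecam1, another endothelial surface protein, stood at 36.8 and 27.4 TPM in KspCre DKO kidneys, against 33.5, 19.4 and 31.0 TPM in controls.

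The order of the levels was the same at the top in both groups. In KspCre DKO kidneys and in controls Cdh16 came first and Cdh1 second, with no overlap between their libraries or with the next gene. Below them the KspCre DKO means ran from Cdh13 (3.32 TPM) through Cdh3 (2.19 TPM), Cdh6 (1.96 TPM) and Cdh11 (1.18 TPM) to Cdh2 (1.14 TPM) and Cdh4 (1.08 TPM). From Cdh3 down, each gene overlapped its neighbour in that order. In controls the order was Cdh11 (4.13 TPM), Cdh6 (3.81 TPM), Cdh3 (2.80 TPM), Cdh13 (2.51 TPM), Cdh2 (0.75 TPM) and Cdh4 (0.13 TPM). There the ranges of Cdh11, Cdh6, Cdh3 and Cdh13 overlapped from neighbour to neighbour, whereas Cdh13 lay above Cdh2 and Cdh2 above Cdh4 in all libraries.

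Chromosome position was not used to choose the genes, and 5 of the 8 lie on chromosome 8. Cdh16 and Cdh3 are separated by 1886455 bases. Of 6 other tested genes within 100000 bases of Cdh16, 1 lay above all controls (Rrad) and 2 below (Car7 and Ciao2b), against 10.5% and 15.6% of all tested genes, while Nae1, Pdp2 and Gm33023 overlapped. None passed the limma test, and 1 of the 6, Car7, had an unadjusted p below 0.05 (background 10.3%). Car7, a carbonic anhydrase gene, stood at 3.33 and 1.37 TPM in KspCre DKO kidneys, against 4.83, 6.85 and 5.76 TPM in controls. Rrad, which encodes a small GTPase, stood at 12.1 and 5.43 TPM in KspCre DKO kidneys, against 3.79, 5.08 and 2.98 TPM in controls. Ciao2b stood at 36.9 and 29.7 TPM in KspCre DKO kidneys, against 39.0, 43.2 and 42.5 TPM in controls. Cdh2 is on chromosome 18 (16588877 to 16809246) and Cdh4 on chromosome 2 (179442423 to 179899377).

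Among the tubule segments that carry Cdh16 and Cdh1, the summed principal cell markers lay above all controls and the summed thick ascending limb markers below them. The 11 collecting duct principal cell markers summed to 2980 and 2931 TPM in KspCre DKO kidneys, against 1295, 1380 and 1339 TPM in controls. Without Aqp2, the most abundant, the other 10 summed to 1566 and 1712 TPM in KspCre DKO kidneys, against 949, 1140 and 913 TPM in controls. Of the 11, 6 were higher and 0 lower at an unadjusted p below 0.05 (background 4.16% and 6.15%), 0 passed in the limma fit, and the median log2 fold change was 0.90. Without control replicate 1, 3 passed. The list did not go 1 way: 3 of the 11 had negative log2 fold changes, Scnn1b and Scnn1g (−0.24 and −0.25), subunits of the epithelial sodium channel that lay below all controls, and Hsd11b2 (−0.20). Aqp2, the vasopressin-regulated water channel, stood at 1414 and 1218 TPM in KspCre DKO kidneys, against 347, 240 and 426 TPM in controls (limma adjusted p = 0.0512). It was called in 8 of 16 alternative fits, among them the fit without control replicate 1 (adjusted p = 0.0484). Aqp3, a basolateral water channel, stood at 171 and 154 TPM in KspCre DKO kidneys, against 97.9, 79.7 and 82.3 TPM in controls. The sum of 12 thick ascending limb markers was 1575 and 1143 TPM in KspCre DKO kidneys, against 2932, 3325 and 3284 TPM in controls. Here 8 were lower and 0 higher at an unadjusted p below 0.05 (background 6.15% and 4.16%), and 0 passed. The median log2 fold change was −1.31, and −1.53 without KspCre DKO replicate 1, where that of all tested genes was −0.39. Slc12a1, the salt cotransporter of that segment, stood at 191 and 61.3 TPM in KspCre DKO kidneys, against 394, 562 and 519 TPM in controls (limma adjusted p = 0.141). Umod, uromodulin, stood at 285 and 193 TPM in KspCre DKO kidneys, against 802, 489 and 542 TPM in controls. The part of segment composition in the Cdh1 value was not tested.

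**Figure D3:**
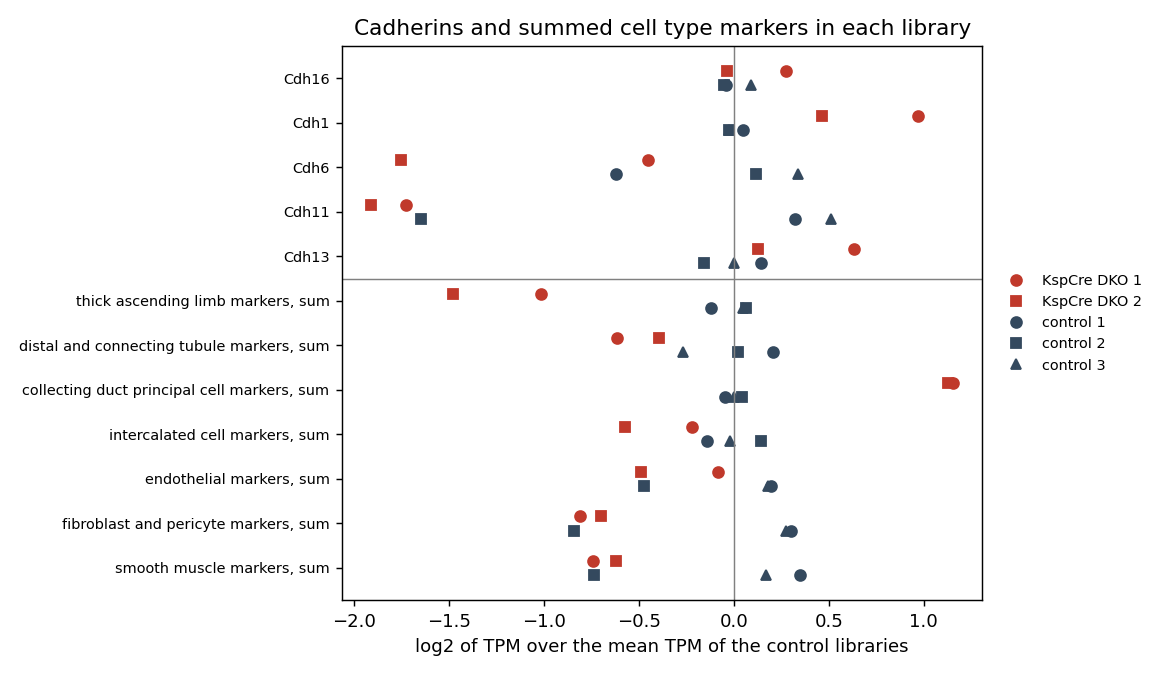
Log2 ratio of each library to the mean TPM of the controls, for 5 cadherins (above the line) and for the summed TPM of marker lists (below it); red symbols are KspCre DKO and dark symbols control. Collecting duct principal cell markers and Cdh1 lie to the right in both KspCre DKO libraries, thick ascending limb markers to the left, and Cdh11, fibroblast and smooth muscle markers of control replicate 2 lie with the KspCre DKO libraries.

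In the other epithelial marker lists 0 members passed in the limma fit. The background for the counts given here is 4.16% of all tested genes higher and 6.15% lower at an unadjusted p below 0.05. The distal and connecting tubule list summed to 5353 and 6237 TPM in KspCre DKO kidneys, against 9445, 8309 and 6816 TPM in controls. Most of that sum is S100g and Klk1, and the other 8 markers summed to 340 and 269 TPM in KspCre DKO kidneys, against 353, 237 and 285 TPM in controls, with overlap. Slc12a3 and Calb1 of that list had log2 fold changes of 0.57 and −0.66, and 0 of 10 were higher and 2 lower at an unadjusted p below 0.05. Of 8 intercalated cell markers, 2 were lower and 0 higher at that level, and Atp6v1g3 and Atp6v0d2 had log2 fold changes of −0.60 and −1.01. The proximal tubule sum is mostly Kap, a single abundant gene. Without Kap, the other 19 proximal tubule markers summed to 11750 and 5891 TPM in KspCre DKO kidneys, against 9839, 8577 and 7355 TPM in controls. The KspCre DKO libraries lay above and below all controls here. Slc34a1, the phosphate transporter, and Lrp2, megalin, had log2 fold changes of 0.33 and −0.10, and 3 of the 20 were lower and 0 higher at an unadjusted p below 0.05. The 11 urothelial and pelvic epithelium markers summed to 415 and 282 TPM in KspCre DKO kidneys, against 162, 83.5 and 115 TPM in controls. Without Psca, the most abundant, the other 10 summed to 98.8 and 103 TPM in KspCre DKO kidneys, against 91.1, 54.9 and 78.8 TPM in controls. Of the 9 tested, 3 were higher and 1 lower at that level. Upk1a and Upk1b had log2 fold changes of −0.06 and −0.25. Of 10 podocyte and parietal cell markers, 0 differed at that level, and Nphs1, a slit diaphragm gene, had a log2 fold change of 0.07.

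Among blood, immune, progenitor and nerve markers, 0 genes passed in the limma fit. The counts are again to be read against 4.16% of all tested genes higher and 6.15% lower. At an unadjusted p below 0.05, 3 of 9 tested macrophage markers were lower, C1qa having a log2 fold change of −0.70, and Adgre1 was at or below 0.71 TPM in all libraries. Of 5 tested lymphocyte markers, 1 was higher and 2 lower. Cd3e was at or below 0.32 TPM, and Cd3d was listed at 0 in both KspCre DKO libraries and in control replicate 2. Of 6 tested progenitor and early nephron markers, 1 was higher and 3 lower. Six2 was at or below 0.09 TPM in all libraries. Cited1 stood at 4.09 and 0 TPM in KspCre DKO kidneys, against 5.49, 10.8 and 15.3 TPM in controls (limma adjusted p = 0.304). Of 2 tested neural and glial markers, 1 was higher, and Sox10 was at or below 0.21 TPM in all libraries. The 6 erythroid markers, which include the near-identical copies Hba-a1 and Hba-a2 whose reads may be split between them, summed to 8522 and 9910 TPM in KspCre DKO kidneys, against 8349, 997 and 3505 TPM in controls, and 2 were higher and 0 lower at an unadjusted p below 0.05.

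Around the cadherins themselves, 7 lists of related genes held 149 genes, of which 104 were tested and 0 passed (limma). At an unadjusted p below 0.05, 9 were higher and 3 lower, against 4.16% and 6.15% of all tested genes. Groups did not overlap for 24 genes on the higher and 8 on the lower side, against 10.5% and 15.6% of all tested genes.

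Catenins join the tails of classical cadherins to actin and to signalling. Ctnnb1, beta-catenin, stood at 242 and 139 TPM in KspCre DKO kidneys, against 224, 171 and 278 TPM in controls. Of 21 tested catenins and adherens junction partners, 2 were higher and 0 lower at an unadjusted p below 0.05 (background 4.16% and 6.15%). The median log2 fold change was −0.06. Ajuba, a LIM protein that binds alpha-catenin, stood at 38.9 and 46.9 TPM in KspCre DKO kidneys, against 26.7, 25.5 and 18.4 TPM in controls (log2 fold change 0.85 ± 0.29 SE, limma adjusted p = 0.37). Magi1, a scaffold of junctions, had a log2 fold change of 0.83 (adjusted p = 0.439). Nectin1, an adhesion molecule of the same junctions, had one of 0.59 (adjusted p = 0.591). The KspCre DKO libraries lay above the controls for all 3 genes, which were named for the smallest p in the list. Ctnnb1 was chosen for description after its values were seen.

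Among 27 tested genes of cadherin processing and turnover, 2 were higher and 1 lower at an unadjusted p below 0.05 (background 4.16% and 6.15%). The median log2 fold change was 0.07. Furin, a protease that removes the propeptide of E-cadherin, stood at 46.5 and 30.1 TPM in KspCre DKO kidneys, against 22.0, 18.1 and 20.0 TPM in controls (log2 fold change 0.87 ± 0.30 SE, limma adjusted p = 0.37). Rab11a, a GTPase of the recycling endosome, stood at 174 and 101 TPM in KspCre DKO kidneys, against 228, 218 and 300 TPM in controls (log2 fold change −0.89 ± 0.31 SE, adjusted p = 0.373). Cd82, a tetraspanin, stood at 195 and 162 TPM in KspCre DKO kidneys, against 111, 96.7 and 103 TPM in controls (log2 fold change 0.77 ± 0.25 SE, adjusted p = 0.328). For each of these genes the groups did not overlap, but they were named for the smallest p in the list.

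Transcription factors known to activate epithelial genes had a median log2 fold change of 0.33 over 17 tested members, and of 0.24 without control replicate 1. Of these, 3 were higher and 0 lower at an unadjusted p below 0.05 (background 4.16% and 6.15%). Above all controls lay 6 and below them 1 (background 10.5% and 15.6% of tested genes). Elf5, an ETS factor that is also in the principal cell list, stood at 70.8 and 53.6 TPM in KspCre DKO kidneys, against 17.2, 8.29 and 6.85 TPM in controls. Its log2 fold change was 2.51 ± 0.40 (SE; limma adjusted p = 0.0705), and it was called in 4 of 16 alternative fits, among them the fit without control replicate 1 (adjusted p = 0.0141). The related ETS factors Ehf and Elf3 had log2 fold changes of 1.49 and 1.15 (limma adjusted p = 0.129 and 0.19), also without overlap. These ETS factors were named for the smallest p in the list.

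Of 8 tested repressors of E-cadherin, 3 had positive and 5 negative log2 fold changes. In this list 0 were higher and 1 lower at an unadjusted p below 0.05 (background 4.16% and 6.15%), with a median of −0.13. Prrx1, a homeobox factor of mesenchyme, stood at 0.56 and 0.35 TPM in KspCre DKO kidneys, against 1.98, 1.38 and 2.76 TPM in controls (limma adjusted p = 0.456). Tcf4 stood at 10.5 and 18.5 TPM in KspCre DKO kidneys, against 10.03, 7.77 and 10.07 TPM in controls (adjusted p = 0.612). Zeb1, which binds E-boxes, stood at 4.23 and 5.86 TPM in KspCre DKO kidneys, against 4.27, 2.59 and 5.07 TPM in controls.

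**Figure D4:**
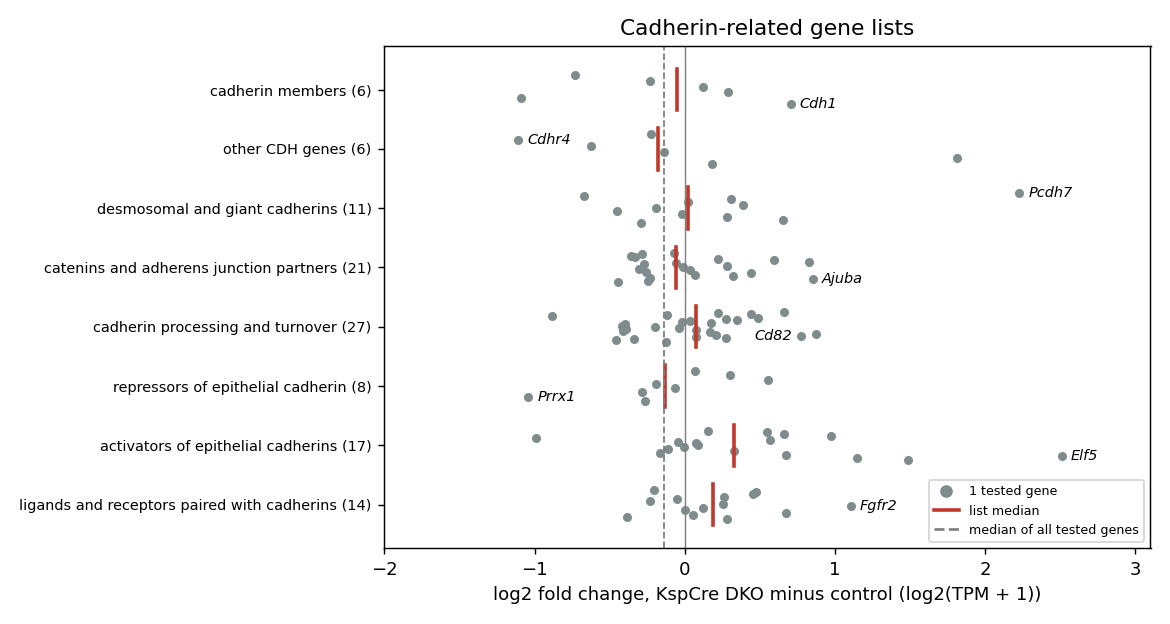
Log2 fold change (KspCre DKO minus control, log2(TPM + 1) scale) of each tested gene in the cadherin list and 7 related lists; the number of genes is given in brackets, red bars are list medians and the dashed line the median of all tested genes. The gene of smallest p in each list is named, and no gene shown passed an adjusted p of 0.05.

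Other members of the cadherin superfamily were mostly low in whole kidney. Of 20 further CDH genes 6 were tested, and the other 14 never exceeded 1.23 TPM, with 7 listed at 0 in all libraries. At an unadjusted p below 0.05, 0 were higher and 1 lower (background 4.16% and 6.15%), with a median log2 fold change of −0.18. Cdhr4 stood at 1.62 and 0.46 TPM in KspCre DKO kidneys, against 1.89, 3.38 and 4.92 TPM in controls (limma adjusted p = 0.471). Cdh26 was decided by 1 library, at 0 and 15.1 TPM in KspCre DKO kidneys, against 0.15, 0.05 and 0.23 TPM in controls. It had a limma adjusted p of 0.58. Cdhr2, a protocadherin of brush border microvilli, stood at 8.97 and 3.14 TPM in KspCre DKO kidneys, against 9.67, 8.51 and 8.54 TPM in controls, and again KspCre DKO replicate 2 set the difference.

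Of 29 desmosomal, giant and protocadherin genes 11 were tested, with a median log2 fold change of 0.02. At an unadjusted p below 0.05, 1 was higher and 0 lower (background 4.16% and 6.15%). Pcdh7, a protocadherin, stood at 6.18 and 5.89 TPM in KspCre DKO kidneys, against 1.70, 0.11 and 0.13 TPM in controls. The KspCre DKO libraries were close to each other and above all controls (log2 fold change 2.23 ± 0.50 SE, limma adjusted p = 0.173). Celsr2, a planar polarity cadherin, stood at 35.2 and 21.5 TPM in KspCre DKO kidneys, against 14.0, 19.1 and 18.7 TPM in controls (adjusted p = 0.536). Pcdh12, a protocadherin of endothelium, stood at 3.73 and 2.72 TPM in KspCre DKO kidneys, against 8.09, 3.59 and 6.18 TPM in controls (adjusted p = 0.594).

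Of 14 tested ligands and receptors that pair with cadherins, 1 was higher and 0 lower at an unadjusted p below 0.05 (background 4.16% and 6.15%). The median log2 fold change was 0.19. Fgfr2, a receptor for fibroblast growth factors, stood at 48.4 and 68.3 TPM in KspCre DKO kidneys, against 25.4, 36.9 and 19.2 TPM in controls (limma adjusted p = 0.318). Egfr and Lrp6 had log2 fold changes of 0.68 and 0.45 (limma adjusted p = 0.548 and 0.614). The KspCre DKO libraries lay above the controls for these 3 receptors, which were named for the smallest p in the list.

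Genes whose profile over the 5 libraries lay closest to a cadherin were taken from 7045 tested genes (mean TPM no lower than 10), by the root mean square difference of centred log2(TPM + 1) values. Closest to Cdh16 were Npdc1, Iscu and Srp68, at 0.0198, 0.023 and 0.0322. Closest to Cdh1 were Mal, Cobll1 and Znfx1, at 0.0642, 0.0718 and 0.078. Mal stood at 305 and 245 TPM in KspCre DKO kidneys, against 176, 162 and 161 TPM in controls. Closest to Cdh6 were Cttnbp2, Slc39a13 and Znhit2, at 0.0527, 0.0675 and 0.0732. Closest to Cdh11 were Myl9, Nes and Col6a2, at 0.113, 0.125 and 0.155. Myl9 stood at 51.1 and 52.7 TPM in KspCre DKO kidneys, against 138, 57.3 and 141 TPM in controls, with control replicate 2 again beside the KspCre DKO libraries. With 5 libraries many genes share a profile, so this likeness is a description.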

How the data were processed

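Per the labels' protocols, RNA of whole kidneys was isolated by RNeasy mini kit, and Illumina TruSeq libraries were prepared from poly(A) RNA. The deposited values are TPM per Ensembl gene, made by the authors. The submitters' processing notes name STAR 2.2.1, RSEM 1.3.1, Trim Galore 0.5.0 and Bismark 0.19.1 and the build mm10, without roles. Neither the annotation release nor the strand setting is given in the sources used here. Because TPM hold no depth, no counting interval was computed.

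A gene name table paired 99.9% of the 54146 identifiers with symbols. Positions and the promoter sequence come from RefSeq for GRCm38.p6, of which mm10 is the UCSC name. Log2(TPM + 1) values of 13963 genes (mean TPM no lower than 1) were tested with limma 3.58.1 under R 4.3.3, with an intensity trend, two-sided, adjusted by Benjamini-Hochberg. Fold changes are on that scale and understate those of low genes. For the genes that are not in this fit an exact permutation of mean log2 values was used. The fit was tested on simulated data, with changes given to genes above a lower limit of expression. It called 2.25% of those with a log2 change of 1 and 62.2% of those with a change of 2. A gene that did not pass may therefore still differ. The members and gene lists were chosen with earlier results of these data known. Named genes were all members, Dnmt3a, Dnmt3b, the 3 of smallest p in each related list, the first 2 in each marker list and the 3 closest profiles of Cdh16, Cdh1, Cdh6 and Cdh11. Ctnnb1, Scnn1b, Scnn1g, Hsd11b2, the abundant genes left out of marker sums and the neighbours on the chromosome were chosen after their values were seen. A few genes that this rule names are not reported here. Alternatives were other pseudocounts, filters, scalings, variance models and library weights, the replicate block, and each library left out.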

Additional observations from a re-analysis of the deposited data

How the results depend on the processing

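The count of called genes over the whole table moved with most settings. Of the 8 cadherins described here, 0 were called under any of the 16 alternatives. Against 23 genes, it was 14 with a pseudocount of 0.1, 39 with one of 5, 4 with no filter, 42 with quantile normalization, 37 with TPM rescaled without mitochondrially encoded genes, 9 without the intensity trend and 5 with array weights. Leaving out 1 library gave 6 to 560 genes: 560 (90 higher and 470 lower) without KspCre DKO replicate 1, 6 without KspCre DKO replicate 2, and 59, 10 and 8 without control replicates 1, 2 and 3. The replicate block gave 75. The labels do not say that a shared number marks a shared litter or batch, so the numbers were not taken to pair the libraries. Deviations of same-numbered libraries from their group means correlated at 0.0926 and 0.0281. The deviations of the 2 KspCre DKO libraries mirror each other by construction, so these values cannot decide whether the libraries are paired. In the related lists, where 0 genes were called, 1 was called with a pseudocount of 5, with the mitochondrial rescaling and with the replicate block, in each case Elf5. Leaving out 1 control library gave 0 to 1. Fits with 1 KspCre DKO library are not counted for these lists. In such fits Cdh26, of the further CDH genes, rests on the lone value of 0 or 15.1 TPM. The difference in the Cdh1 share of the cadherin sum, 2.13 percentage points, was 1.7 to 2.55 with 1 library left out. The log2 fold change of Cdh16 was 0.449 with quantile normalization and −0.0318 to 0.275 with 1 library left out, and that of Cdhr2 −1.26 to 0.0113. Marker genes near 0 also turned. With median-of-ratios scaling, quantile normalization and mitochondrial rescaling Lrp2 was at 0.00953, 0.0511 and 0.00982 and Upk1a at 0.0391, 0.00306 and 0.0411. Nphs1 was at −0.0866 with array weights. With 1 library left out, the ranges were −0.41 to 1.06 for Slc34a1, −0.44 to 0.24 for Lrp2, −0.42 to 0.26 for Upk1a, −0.32 to 0.29 for Nphs1, −0.0205 to 0.423 for Pecam1 and −0.63 to 0.35 for Cdh5. The causes were not tested. A fit without 1 KspCre DKO library takes the lone library to vary like the controls. Low genes such as Cdh4 and Cdh2 are limited by an unknown depth.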
